A study of Hemigymnus melapterus and Thalassoma lunare and Coris batuensis with 46 samples.

Results

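The genes described here are 60 of the 28134 genes listed under identifiers that begin with Ldim_g, and they are those whose levels differed most from fish to fish within a species. They were measured in a forebrain slice from female wrasses of 5 species, with 1 library per fish. The facultative cleaners, fishes that at times pick parasites off others, were Halichoeres melanurus (8 of 9 fish used), Hemigymnus melapterus (9 of 10) and Thalassoma lunare (9 of 10). Coris batuensis (9 fish) and Labrichthys unilineatus (8 fish) are labelled non-cleaners. The slices were 300 µm thick, and the time from capture to death was 6 to 28 minutes. The labels name no treatment, age, day, site or batch.

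The members were chosen by their values in 43 libraries on the CPM scale, on which a count is divided by all counts given to genes in that library. A gene had to reach a total count of 500 over them, which 421 genes did, and its species levels, log2 of the mean CPM plus 10, had to overlap between cleaners and non-cleaners, which removed 62 and left 359. For each species the variance of CPM among fish, less the part that counting alone gives, was divided by the squared mean, and the genes were ordered by the median of this index over the 5 species. The 60 highest are the members, and the other 299 are called the remaining eligible genes. The index is a squared coefficient of variation (CV) in excess of counting, and since it chose the members it is given as a description only.

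The slice holds pallial areas of the fish forebrain, with parts of the septum and striatum. These pallial areas are compared with the hippocampus and amygdala of mammals and are known for their roles in learning and in emotional behaviour. In the 3′ tag method only the end of each polyadenylated RNA is read, so that a count follows the number of transcripts and not their length. A slice of tissue mixes neurons, glia, blood and vessels, so fewer cells of a type and less RNA per cell cannot be told apart in these values. The identifiers come without gene names in the files, so no function is given to any gene here, and no sequence is shown.

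In the 43 libraries the counts given to genes ran from 14927 in Coris batuensis 10 to 59259, with a median of 32948, and they were 3.70% to 6.24% of all reads listed. A single count was worth 30.4 CPM in the median library and 67.0 in the shallowest. The members held 5.23% of all gene counts and had total counts of 510 to 7178, with a median of 807 against 1148 for the remaining eligible genes. In all, 4 members and 9 of the remaining genes had under 20 counts in at least 1 species. Reads of every species were assigned to 1 common set of identifiers, so that a difference in level between species can also come from how well its reads align, and the part of alignment was not tested.

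There were 3 libraries that stood apart and were left out by the rule. In the library labelled Thalassoma lunare 4, 53 of the 60 members (88.3%) lay inside the range of the Halichoeres fish and 28 (46.7%) inside that of its own species, against 70.9% and 43.1% of the remaining eligible genes. In the library labelled Halichoeres melanurus 2, 47 (78.3%) lay inside the range of Thalassoma and 32 (53.3%) inside that of Halichoeres, against 72.6% and 42.8% of the remaining genes. In both libraries more genes, members or not, lay inside the range of the other species than inside that of the labelled one. Whether they carry each other's labels was not tested, and if they do, every value given below for all 46 libraries counts each of them in the wrong species. Hemigymnus melapterus 4 had 15625 gene counts, 24 members at 0 and 14 (23.3%) inside the range of its own species, against 10.7% of the remaining genes. The members were chosen for their spread in the libraries that set these ranges, and the part of that choice in their higher shares was not tested. With the 3 left-out libraries put back, 31 of the 60 members would still have been chosen.

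The members varied among fish of a species by a typical CV, beyond counting, of 27.3%, against 12% for the remaining eligible genes. Their median index ran from 0.0524 to 0.989, which is a CV of 22.9% to 99.4%, and the median over members was 0.0745 against 0.0144 for the remaining genes. Ldim_g16931 stood far above the others at 0.989, the next gene was at 0.221, and 14 members reached 0.1. The threshold fell in a smooth slope. The last members were Ldim_g24173 at 0.0555, Ldim_g13125 at 0.0528 and Ldim_g23357 at 0.0524, and the first genes outside were Ldim_g3980 at 0.0521, Ldim_g21960 at 0.0521 and Ldim_g17425 at 0.0517.

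**Figure D1:**
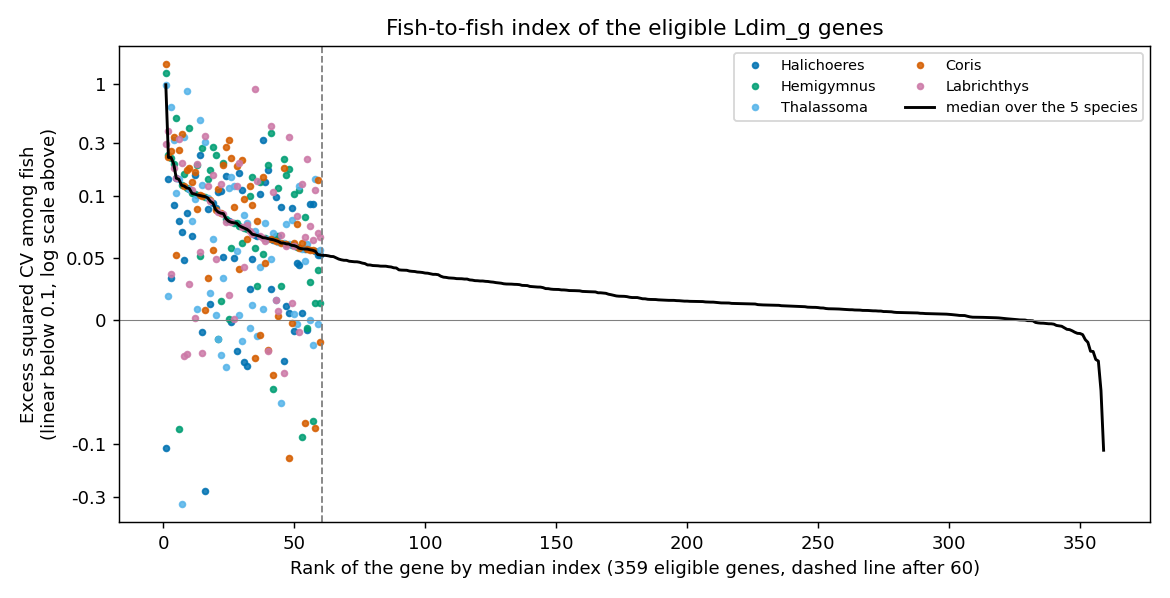
Index of variation among fish (excess squared CV, linear below 0.1 and logarithmic above) against rank for the 359 eligible genes, with the median over 5 species as a line and the value in each species as points for the 60 members. The line falls from 0.989 to 0.0524 at the dashed line without a step there, and the points of 1 member spread widely over species.

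The rule itself asks for a positive index in at least 3 of the 5 species. Of the 60 members, 24 (40.0%) had a positive index in all 5 species, 29 in 4 and 7 in 3, and 83 of the remaining eligible genes (27.8%) had one in all 5. The median index of the members was 0.0680 in Halichoeres, 0.0912 in Hemigymnus, 0.0616 in Thalassoma, 0.0875 in Coris and 0.0753 in Labrichthys. For the remaining eligible genes the same medians were 0.00901, 0.0157, 0.0114, 0.0140 and 0.0207. Over all 359 eligible genes the order of the index was only weakly shared between species, with Spearman's rho from -0.01 for Halichoeres and Thalassoma to 0.21 for Hemigymnus and Thalassoma over the 10 pairs of species, a description across genes that share libraries and depths.

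The choice was repeated on 4 species at a time and the index was then read in the fifth. Fish of the fifth species entered the choice only through the minimum total count, which was taken over all 43 libraries. Of 60 genes chosen without Halichoeres, 41 (68.3%) had an index above the median of that species, against 45.5% of the remaining genes. Without Hemigymnus it was 40 (66.7% against 45.1%), without Coris 41 (68.3% against 43.2%) and without Labrichthys 36 (60% against 46.4%). In Thalassoma the 60 genes chosen elsewhere were hardly set apart, with 31 above the median (51.7% against 49.4%) and a median index of 0.0154 against 0.0119. With a minimum total count of 1000 in place of 500, Thalassoma gave 61.7% against 43% and Labrichthys was the least set apart, with 53.3% against 46.8%, so which species stands out depends on that minimum. At 500 the chosen genes had a median index of 0.0418 in Halichoeres, 0.0512 in Hemigymnus, 0.0448 in Coris and 0.0408 in Labrichthys. As in Thalassoma, each was below the median of the members in that species, whose choice had used its fish. The 5 choices at 500 shared 32 to 41 genes with the members, so they describe the rule more than the list.

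**Figure D2:**
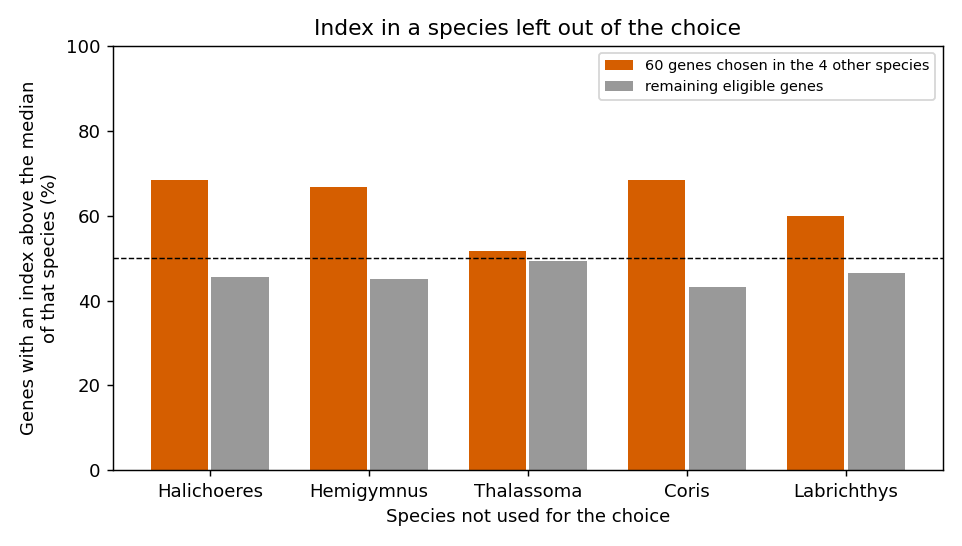
Percent of genes whose index exceeds the median of the species named on the horizontal axis, for 60 genes chosen by their index in the other 4 species (orange) and for the remaining genes eligible in that choice (grey), with a dashed line at 50%. Orange stands well above grey in Halichoeres, Hemigymnus, Coris and Labrichthys, and the bars are nearly level in Thalassoma at 51.7% and 49.4%, which holds for the minimum total count of 500 and not for 1000.

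Ldim_g16931 was the most variable member and also the one whose species levels lay farthest apart. In Labrichthys it ran from 734 to 2958 CPM with a median of 1152, resting on 589 counts. Hemigymnus fish ranged from 41.9 to 975 CPM with a median of 113, and the highest, Hemigymnus melapterus 6 with 30 counts, was followed by a fish at 478 CPM. Thalassoma fish lay between 0 and 227 CPM with a median of 46.5. The gene was high in every Labrichthys fish and low elsewhere, and only the top Hemigymnus fish reached into the Labrichthys range. In Halichoeres it had 8 counts over 8 fish and in Coris 3 counts over 9 fish, with 7 fish at 0, so its index in those species rests on very few reads. Leaving out Hemigymnus melapterus 6 lowered its median index from 0.989 to 0.505.

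Ldim_g5172, at rank 3 by index, was variable in some species and even in others. Thalassoma fish ran from 348 to 3383 CPM with a median of 858, and Coris fish from 134 to 1967 with a median of 1088, the lowest being Coris batuensis 10 with 2 counts. Hemigymnus fish ranged from 1676 to 6686 CPM around a median of 3040, the top fish being Hemigymnus melapterus 2. By contrast, all Halichoeres fish lay between 3440 and 6309 CPM and all Labrichthys fish between 2008 and 4181. The range of Halichoeres lay above those of Coris and Thalassoma without overlap, while those of Halichoeres, Hemigymnus and Labrichthys did. Its median index fell from 0.221 to 0.0724 without Hemigymnus melapterus 2 and to 0.136 without Coris batuensis 10.

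Ldim_g22109, at rank 4, was variable in all 5 species. It ran from 1518 to 4664 CPM in Hemigymnus (median 2372), from 1052 to 5253 in Thalassoma (median 2054) and from 734 to 4050 in Coris (median 1866). Halichoeres fish lay between 946 and 2673 CPM (median 1518) and Labrichthys fish between 2380 and 7254 (median 3585). Every pair of species overlapped, with Labrichthys highest by its median, and the highest fish of a species had 2.83 times the level of the lowest in Halichoeres and 5.52 times in Coris. Its index moved only between 0.179 and 0.225 when single libraries were left out.

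Ldim_g22112, at rank 9, carries an identifier number only 3 above that of Ldim_g22109, and what lies between them in the genome was not used here. It ran from 954 to 2597 CPM in Hemigymnus, from 543 to 1923 in Halichoeres and from 310 to 1726 in Coris. In Thalassoma it was low, from 28.4 to 400.0 CPM with a median of 54.0, and in Labrichthys from 75.1 to 243. Hemigymnus and Halichoeres did not overlap with Thalassoma and Labrichthys, and the high Thalassoma fish, Thalassoma lunare 3, was also the highest of its species for Ldim_g22109. Over the 43 fish, centred on species means, the log2 levels of the 2 genes had a Pearson r of 0.77, with 0.46 in Labrichthys, 0.79 in Coris, 0.81 in Halichoeres, 0.82 in Thalassoma and 0.94 in Hemigymnus.

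Ldim_g19873 and Ldim_g7292, at ranks 10 and 11, were abundant members, and in some species the highest fish stood apart from the next. In others the highest fish lay close together, as for Ldim_g7292 in Hemigymnus at 7563 and 7246 CPM. Ldim_g19873 had a median of 1485 to 2449 CPM in the 5 species, and its widest range was 541 to 6076 CPM in Hemigymnus, from Hemigymnus melapterus 2 to Hemigymnus melapterus 6. Its narrowest was 1262 to 2183 CPM in Labrichthys. Ldim_g7292, the member with the most counts, ran from 5234 to 15547 CPM in Labrichthys around a median of 9156, and the highest fish there, Labrichthys unilineatus 2, was followed at 9902. Coris fish lay from 1004 to 4100 CPM, below every Labrichthys fish, with Coris batuensis 9 at the top and the next at 2298. Halichoeres and Hemigymnus fish had similar medians, 5662 and 5232 CPM, and overlapped throughout.

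The other members among the 12 of highest index were of lower level. Ldim_g6318 (index 0.221) had a median of 869 CPM in Thalassoma, where its index was 0.0195, and of 44.9 CPM in Labrichthys, where it rested on 20 counts. Ldim_g18283 (0.144) was raised in 1 fish in each of 3 species, reaching 1425 CPM in Hemigymnus melapterus 9 against 717 in the next fish. Ldim_g5120 (0.141) was most spread in Labrichthys, from 123 to 1853 CPM. Ldim_g5812 (0.125) ran from 411 to 1639 CPM in Labrichthys and had only 9 counts in Thalassoma. Ldim_g19527 (0.122) ran from 108 to 853 CPM in Thalassoma and from 102 to 279 in Labrichthys, and Ldim_g14152 (0.104) reached 1602 CPM in Halichoeres melanurus 1 against 884 in the next fish. Within a species no fish was the highest for all 6 of these genes.

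**Figure D3:**
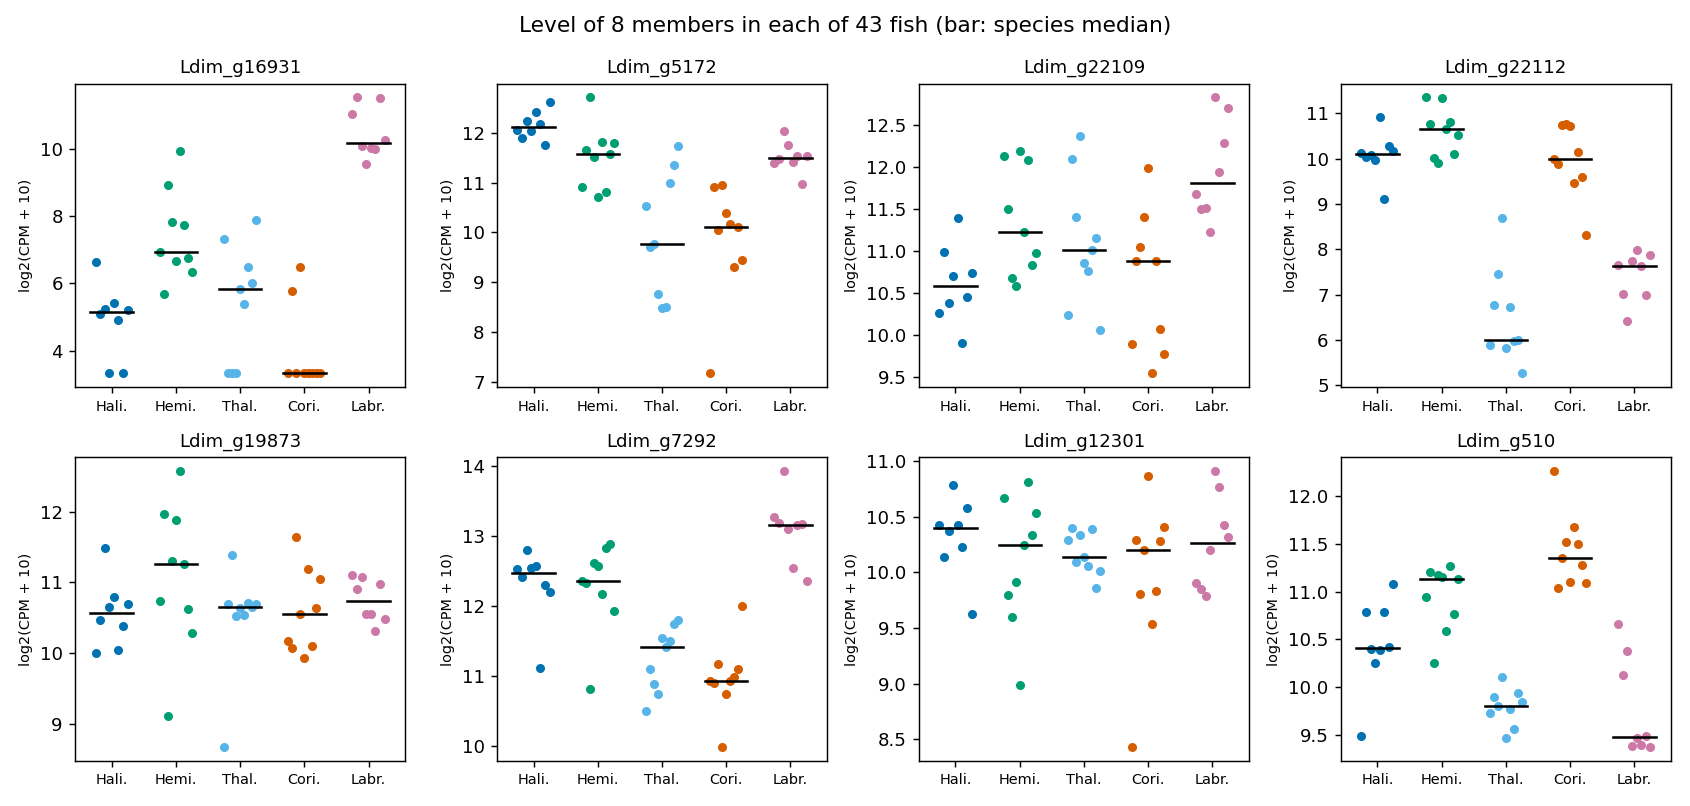
Level of 8 members in each of 43 fish, as log2(CPM + 10), with 1 point per fish, colours for the 5 species and a bar at the species median. Ldim_g16931 spans from 0 CPM to 2958 CPM and is highest in Labrichthys, with Hemigymnus melapterus 6 at 975 CPM, whereas Ldim_g12301 has similar medians in all 5 species and a single low fish in Coris.

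Single libraries weighed on many of the indices. For 33 of the 60 members, among them 6 of the 12 highest, the index fell by more than 1.5-fold when 1 library was left out. It stayed above 0 for 58 members, the exceptions being Ldim_g12444 at -0.0446 without Halichoeres melanurus 6 and Ldim_g19649 at -0.0085 without Coris batuensis 6. Leaving out Coris batuensis 10 lowered the index this far for 11 members, and no other library did so for more than 6. When the 60 genes were chosen again without each library in turn, 47 to 58 of the members were chosen (median 56). The lowest value, 47, came without Coris batuensis 10 and the next lowest was 53. This shallowest library was the highest of its species for 18 members (30.0%, against 17.7% of the remaining eligible genes). It was the lowest for 16 of the 60 members, a share above the 21.7% of the remaining genes. Ties for the lowest went to the first fish listed, as for Ldim_g16931 with 7 Coris fish at 0, so the 16 include ties. The members were chosen for their spread in these same values. Neither the part of that choice nor that of the library's depth was tested.

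Most members had no close partner among the other members, but 3 groups of members rose and fell together from fish to fish. Levels were taken as log2(CPM + 10), centred on the species mean, and compared by Pearson's r over the 43 fish. Of 1770 pairs of members, 39 (2.2%) had an r of 0.5 or more, against 342 of 44551 pairs (0.768%) of the remaining eligible genes, and the median r over member pairs was 0.00. Such correlations come from the same libraries, depths and CPM totals, and the members were chosen for their spread, whose part in the higher share was not tested. With the 3 left-out libraries put back, 306 member pairs (17.3%) reached this r, against 22.9% of pairs of other genes, so the share was then not the higher one. In the 43 fish, a partner at this r among the members was found for 23 of them, and 37 had none, among them 7 of the 12 with the highest index. Counting the other eligible genes and the ENSONIT transcripts as well, 47 members had a partner at this r. The same count is not given for the remaining eligible genes, whose median best r with a transcript alone was 0.52. The 47 are therefore not read as a property of the members. Among the 39 pairs, 26 had a positive r in each of the 5 species. These pairs, and those of the groups below, were taken for their r over the same fish. Part of a shared sign is thus built in, and it is not read as agreement between species. The same count is not given for pairs of the remaining eligible genes.

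The largest group held 7 members, Ldim_g6725, Ldim_g510, Ldim_g22754, Ldim_g7896, Ldim_g27177, Ldim_g15670 and Ldim_g13125, which carried 0.961% of gene counts. They lie at ranks 13 to 59, so the most variable genes are not among them. Their 21 pairs had an r of 0.29 to 0.80 with a median of 0.59, and 12 of the pairs were positive in each species. The median r within species was 0.80 in Halichoeres, 0.63 in Coris, 0.57 in Hemigymnus, 0.54 in Labrichthys and 0.08 in Thalassoma. The co-variation was seen in 4 species and hardly in Thalassoma, where the mean of the group also spread least, and the difference between species was not tested. In Thalassoma the index was -0.0125 for Ldim_g510, -0.0036 for Ldim_g13125, -0.0034 for Ldim_g27177 and -0.00014 for Ldim_g15670, which is no spread beyond counting. For Ldim_g6725, Ldim_g7896 and Ldim_g22754 it was 0.0093, 0.0161 and 0.0783. With so little spread a low r cannot show that co-variation is absent there. As a mean over the 7 members, Thalassoma fish deviated from their species mean by -0.16 to 0.20 on the log2 scale, Halichoeres fish by -0.98 to 0.67 and Coris fish by -0.51 to 0.77.

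Ldim_g510 had the highest mean r with the others of this group, at 0.66, and its closest partner was Ldim_g15670 at 0.80, with 0.66 to 0.89 within species. Ldim_g510 ran from 712 to 2157 CPM in Halichoeres (median 1351), from 1210 to 2449 in Hemigymnus (median 2232) and from 697 to 1093 in Thalassoma (median 886). Coris fish ran from 2088 to 4890 CPM (median 2594) and Labrichthys fish from 654 to 1613 (median 703). Coris lay above all Thalassoma and Labrichthys fish, and the lowest Halichoeres fish, Halichoeres melanurus 1, was below the species mean for all 7 members of the group. Halichoeres melanurus 9, Hemigymnus melapterus 1 and Coris batuensis 10 were the highest of their species for the mean of the group and above it for all 7 members.

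A second group joined Ldim_g19873, Ldim_g7292 and Ldim_g8364, with r of 0.51 to 0.55 over the 43 fish. As a group of 3 it was not seen in all species, since the median r was 0.87 in Hemigymnus, 0.59 in Halichoeres, 0.50 in Coris, 0.25 in Thalassoma and -0.64 in Labrichthys. Ldim_g19873 and Ldim_g7292 had a positive r in each species, from 0.37 in Coris to 0.64 in Labrichthys. The negative values in Labrichthys were those of Ldim_g8364 with Ldim_g7292 (-0.64) and with Ldim_g19873 (-0.77). In that species Ldim_g8364 had 76 counts and an index of -0.0253, which is no spread beyond counting. The fish farthest out was Hemigymnus melapterus 2, whose mean over the 3 genes deviated from its species by -2.57 on the log2 scale, with 541 CPM for Ldim_g19873, 1783 CPM for Ldim_g7292 and a count of 0 for Ldim_g8364. The same fish was the highest Hemigymnus for Ldim_g5172.

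Another group joined Ldim_g12301, Ldim_g25463 and Ldim_g4758, with 0.225% of gene counts and r of 0.63 to 0.69. Each pair was positive in each species. The median r was 0.77 in Coris, 0.66 in Hemigymnus, 0.53 in Thalassoma, 0.35 in Labrichthys and 0.24 in Halichoeres. Ldim_g4758 had an index of -0.0334 in Halichoeres and -0.0426 in Labrichthys, which is no spread beyond counting. Its r with Ldim_g12301 was 0.24 and 0.14 in these species. Ldim_g12301 had the smallest difference between species of any member, 0.27 on the log2 scale from the lowest to the highest species level. It ran from 782 to 1758 CPM in Halichoeres, from 498 to 1786 in Hemigymnus, from 917 to 1341 in Thalassoma, from 335 to 1858 in Coris and from 876 to 1912 in Labrichthys. All 5 ranges overlapped, with medians between 1115 and 1341 CPM. The low end in Coris was Coris batuensis 10, with 5 counts of Ldim_g12301, 1 of Ldim_g25463 and 0 of Ldim_g4758, a mean deviation of -2.65 on the log2 scale. Without this fish the r within the group was 0.33 to 0.51 over 42 fish, with a median of 0.50 against 0.65. Only 2 of its 3 pairs then reached 0.5, so the group rests in part on this fish. The number of members in groups of 3 or more fell from 13 to 7, with 4 of the 7 members of the largest group still together.

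Over the 43 fish the largest group and the group around Ldim_g12301 were negatively correlated, but not in every species. All 21 pairs between them had a negative r, from -0.67 to -0.18 with a median of -0.40. Within species the number of negative pairs was 21 in Coris, 19 in Hemigymnus, 18 in Halichoeres and 15 in Labrichthys, with medians from -0.59 to -0.40. In Thalassoma only 10 of the 21 were negative, with a median of 0.06, so the opposition was not seen there. Ldim_g12301 had an index of -0.0063 in Thalassoma, and members of the largest group were also below 0 there. The values from that species therefore cannot show that the opposition is absent. The most negative pair over all fish was Ldim_g12301 with Ldim_g27177, which ran from -0.89 in Labrichthys to -0.38 in Thalassoma. Of the 13 pairs of members at -0.5 or less (0.734% of pairs, against 0.355% for the remaining genes, counted after the values were seen), 7 had the same sign in all 5 species. Of these 13, 6 lay between the groups described, and 3 of the 6 were negative in every species. Like the positive pairs, the 13 were taken for their r over these same fish, so their signs are not read as agreement between species. Without Coris batuensis 10 the 21 pairs were still negative, with a median of -0.28. Halichoeres melanurus 9 was the highest of its species for the mean of the group of 7 and the lowest for that of the 3. The groups also sloped in opposite directions on the percent of reads not aligned. Within species the slope was negative for all 7 members of the largest group, from -0.15 to -0.05 on the log2 scale for each percent, and positive for all 3 of the other, from 0.09 to 0.22. Of all genes tested 52.4% had a negative slope. Members of a group were joined by their co-variation, so their slopes are not independent of each other and are not read against that share. For reads listed the slope was negative for 6 of the 7 and 0 of the 3. On reads outside genes it was negative for 1 of the 7 and all 3. Neither group held a member past the threshold for these 3 measures by edgeR's quasi-likelihood test with Benjamini-Hochberg adjustment. The lowest edgeR adjusted p was 0.102, and the part of these measures in the negative correlation was not tested.

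**Figure D4:**
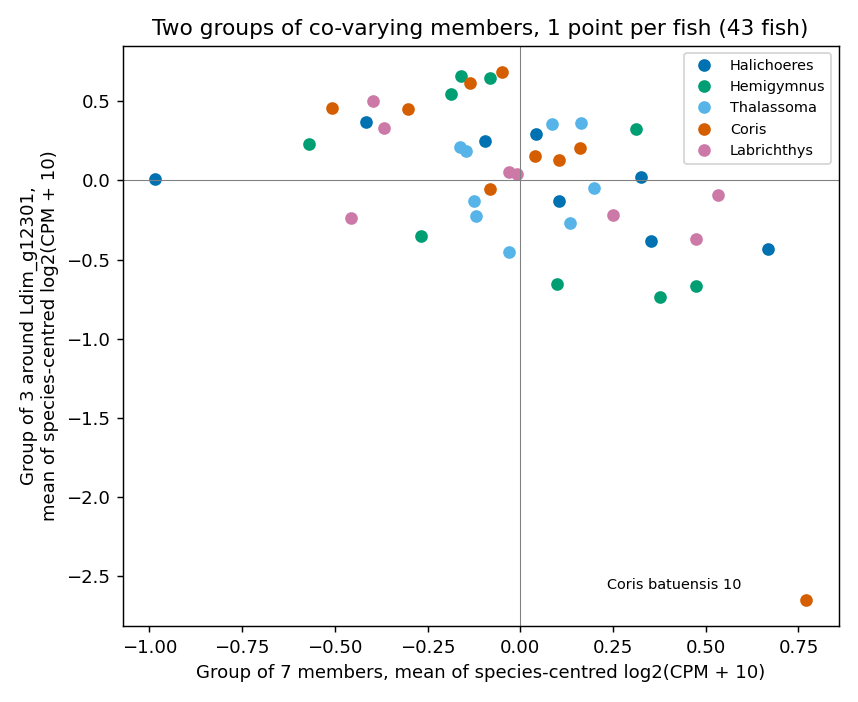
Mean of the 7 members of the largest group (horizontal) against the mean of Ldim_g12301, Ldim_g25463 and Ldim_g4758 (vertical), both as log2(CPM + 10) minus the species mean, with 1 point per fish and colours for species. Fish at the right tend to lie low over all species but not among the Thalassoma fish, and Coris batuensis 10 lies alone at 0.77 and -2.65.

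**Figure D5:**
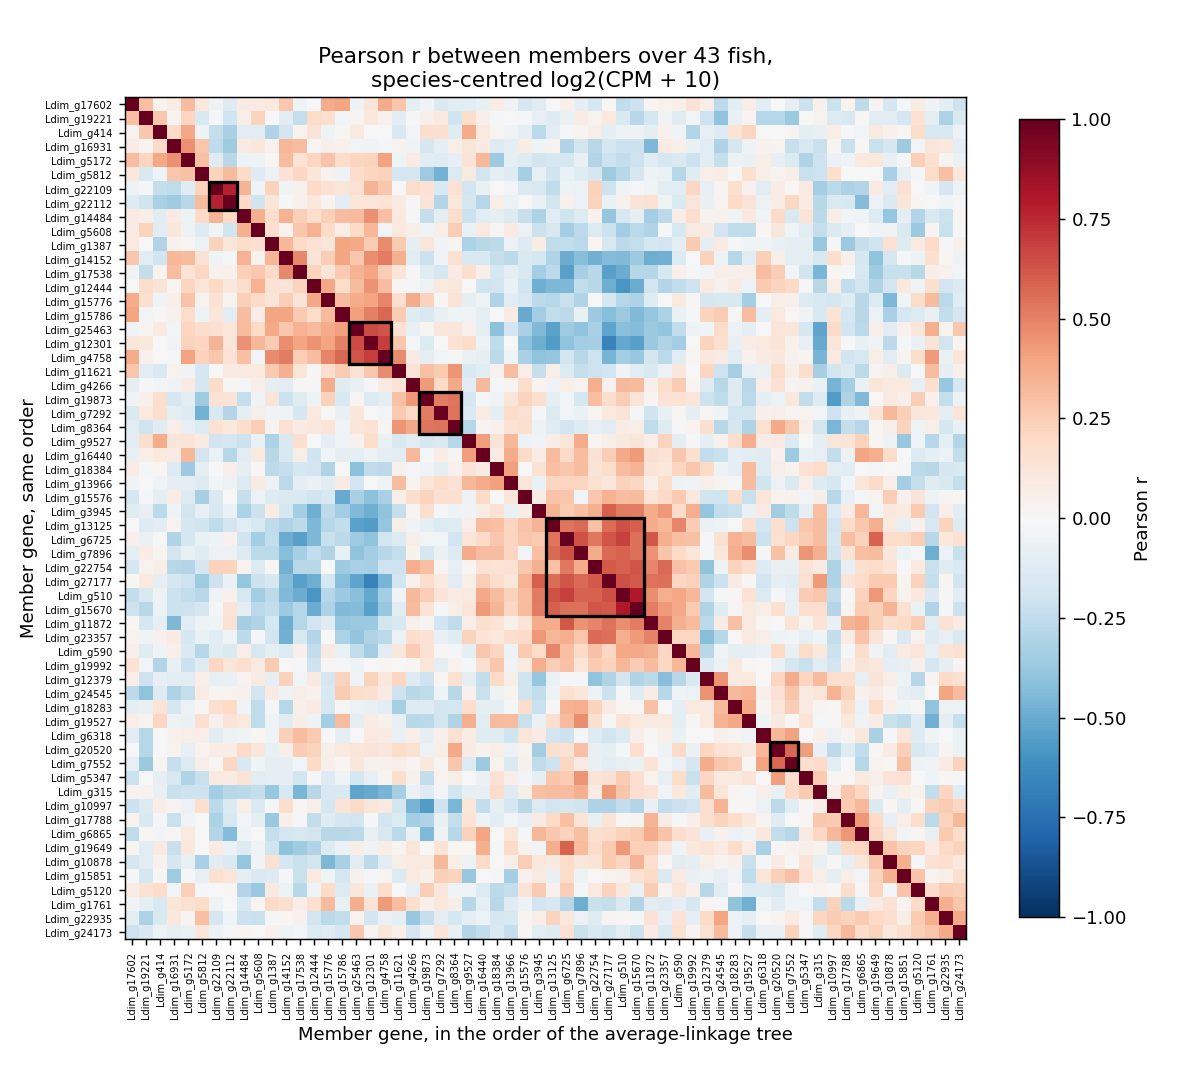
Pearson r between all 60 members over 43 fish on species-centred log2(CPM + 10), in the order of an average-linkage tree, with boxes around the groups formed at a distance of 0.5. The box of 7 members and the box of 3 around Ldim_g12301 are joined by blue cells (negative r), and most of the remaining field is pale.

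A further 2 pairs completed the groups, Ldim_g22109 with Ldim_g22112, described above, and Ldim_g20520 with Ldim_g7552 at an r of 0.57. The other 43 members joined no group. For the 3 members of highest index the most similar profiles were sought among the 359 eligible genes and the 391 transcripts of the authors' other count set with a total count of 500 or more. Ldim_g16931 was most like Ldim_g5172 (r 0.45) and ENSONIT00000006249.1 (0.40). The profile of Ldim_g6318 came nearest to Ldim_g176 (0.45) and Ldim_g4234 (0.44), and that of Ldim_g5172 to Ldim_g12210 (0.64) and ENSONIT00000025301.1 (0.56), each over 43 fish.

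The same reads were also counted by the authors on a second set of identifiers, which begin with ENSONIT. For each member the most similar of the 391 transcripts by species-centred profile was found. The best r ran from 0.34 to 0.93 with a median of 0.53, nearly that of the remaining eligible genes (0.52), but 11 members (18.3%) reached 0.7 against 19 of 299 (6.35%). With a pseudocount of 50 in place of 10, 9 members reached it. Among the 11 were Ldim_g6725, Ldim_g510, Ldim_g7896, Ldim_g27177 and Ldim_g15670 of the largest group, and Ldim_g12301 with Ldim_g4758, so they are not separate cases. The members were chosen for their spread in these libraries, and the part of that choice in the higher share was not tested. Ldim_g12301 followed ENSONIT00000001083.1 at 0.93 and Ldim_g27177 followed ENSONIT00000018100.1 at 0.91, each the highest r of 391. The first transcript was also the closest to Ldim_g25463 (0.64), and the second to Ldim_g13125 (0.69) and Ldim_g23357 (0.53). Whether a member and its closest transcript are the same gene was not tested. For Ldim_g22109 and Ldim_g22112 no transcript came above 0.44 and 0.39. Because both sets come from the same libraries, this says nothing of whether another library of the same fish would show the pattern.

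Levels of the members also differed between species. The median member had 559 CPM in Halichoeres, 523 in Hemigymnus, 462 in Thalassoma, 557 in Coris and 671 in Labrichthys, against 783 to 850 CPM for the remaining eligible genes. From the lowest to the highest species the log2 level differed by 0.27 to 6.11 with a median of 1.75, against a median of 1.13 for the remaining genes, and 8 members differed by less than 1. Species of the same status were compared by edgeR's quasi-likelihood test with Benjamini-Hochberg adjustment over all 752 genes tested, and all 60 members were among them. The difference between cleaners and non-cleaners was part of the rule and was not tested. Since the members were chosen for their spread among fish, which is the error of this test, their counts are given beside the background and not as a property of the list.

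Between Halichoeres and Hemigymnus 39 members passed an adjusted p of 0.05 (65.0% of members, against 59.3% of all genes tested and 64.5% of the remaining eligible genes), of which 13 were higher in Halichoeres (29.1% of all genes) and 26 lower (30.2% of all genes). Their median absolute log2 difference was 0.99, against 0.65 over all genes. The largest was Ldim_g12379, which ran from 0 to 71.4 CPM in Halichoeres, with 12 counts over 8 fish, and from 669 to 2179 CPM in Hemigymnus. The ranges did not overlap, and the log2 difference was -4.94 (SE 0.44, edgeR adjusted p = 6.88e-15).

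Between Halichoeres and Thalassoma 36 members passed (60% of members, against 54.5% of all genes and 59.9% of the remaining eligible genes), 19 higher in Halichoeres (27.3% of all genes) and 17 lower (27.3% of all genes). Ldim_g5812 differed most, at 439 to 1157 CPM in Halichoeres and 0 to 74.3 CPM in Thalassoma. No Thalassoma fish reached the lowest Halichoeres fish, and the log2 difference was 4.47 (SE 0.41, edgeR adjusted p = 1.21e-14). The median absolute log2 difference over members was 0.72, against 0.58 over all genes.

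Between Hemigymnus and Thalassoma 45 members passed (75.0% of members, against 64.5% of all genes and 69.2% of the remaining eligible genes), with 29 higher in Hemigymnus (32.6% of all genes) and 16 lower (31.9% of all genes). The median log2 difference over members was 0.48, against 0.06 over all genes. Ldim_g22112, whose ranges are given above, differed by 3.84 on the log2 scale (SE 0.31, edgeR adjusted p = 5.73e-17). Its neighbour by number Ldim_g22109 differed by 0.15 between the same species (SE 0.26, edgeR adjusted p = 0.605), so the 2 genes varied together among fish while only the first differed between these species past the threshold. The difference between those 2 values was not tested.

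Between the non-cleaners Coris and Labrichthys 42 members passed (70.0% of members, against 58.6% of all genes and 61.5% of the remaining eligible genes), with 22 higher in Coris (28.1% of all genes) and 20 lower (30.6% of all genes). Ldim_g16931 differed most, and its ranges did not overlap. The fitted log2 difference was -6.74 (SE 0.57, edgeR adjusted p = 4.54e-16), but with 3 counts in Coris its size depends on the model. From summed counts Labrichthys stood 142-fold above Coris, with an exact 95% interval of 48.4 to 692 that covers counting error only. Ldim_g7292 was lower in Coris by a log2 difference of -2.15 (SE 0.20, edgeR adjusted p = 3.65e-14).

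With the 3 left-out libraries put back, 36, 25, 40 and 38 members passed in the 4 comparisons in the order given above. The share of all genes that passed with 46 libraries is not given here, so these numbers are not read as a property of the members. The log2 difference was then -3.02 for Ldim_g12379, 2.88 for Ldim_g5812, 2.26 for Ldim_g22112 and -6.76 for Ldim_g16931, each still past the threshold.

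Over the 4 comparisons in 43 fish 11 members passed in all, 32 in 3, 10 in 2, 2 in 1 and 5 in none. Ldim_g12301 was among the last, with log2 differences of -0.26 to 0.14. Comparisons that share a species share its fish, so these counts are not independent of each other. The same counts are not given here for the other genes tested, so they are not read as a property of the members.

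Members' levels within species were also set against 3 measures of each library that the rule had not used, the number of reads listed, the percent not aligned and the percent aligned outside genes. No member passed for any of them by edgeR's quasi-likelihood test with Benjamini-Hochberg adjustment, beside 0% of the 752 genes tested in each case, and DESeq2 also gave 0 members for each. At an unadjusted p below 0.05 6 members passed for reads listed (10.0%, against 7.71% of all genes), 11 for reads not aligned (18.3%, against 10.4%) and 6 for reads outside genes (10.0%, against 8.24%). The lowest edgeR adjusted p of a member was 0.394, 0.102 and 0.123 in turn. With all 46 libraries 2, 8 and 6 members passed, beside 124, 112 and 141 of 753 genes tested. With no filter on low counts a member passed for each measure, and how many of all genes did so is not given here. A slope that misses the threshold does not show that a member is unrelated to the measure.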

How the data were processed

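For each fish the authors deposited raw read counts per identifier in 2 tables, and neither was normalized, as their values are whole numbers whose sums differ between libraries. The Ldim_g counts were used, and the ENSONIT counts served only to find similar profiles. Per the submitters' processing notes, cutadapt 2.8, BWA and SAMtools were used. Neither the reference nor the counter is given in the sources used here. Per the labels' protocols the libraries were amplified by PCR and no molecular identifiers are mentioned, so intervals cover counting error only. All reads not counted in a gene (unaligned, outside genes, of low alignment quality or ambiguous) counted toward no library size and formed no tested gene, and their shares served only as measures of a library. They were all but 3.70% to 6.24% of the reads in a library.

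The members and lists were chosen with earlier results of these data known. The total count of 500 was taken over the 43 libraries used. Tests used edgeR 4.0.16 in R 4.3.3 (filterByExpr by species with a minimum count of 10 and a minimum total of 15, TMM scaling, quasi-likelihood fit with 1 coefficient per species over 43 libraries, common biological coefficient of variation 0.179), adjusted over 752 genes by Benjamini-Hochberg. Each library measure was added to that model in turn. Correlations, trees (average linkage, 1 minus r, joined up to 0.5) and indices were computed in Python 3.11.15. The edgeR test and the index were tried on simulated data. Genes with a set squared CV of 0, 0.05, 0.2 and 1 had a median index of -0.0016, 0.0394, 0.168 and 0.754. Where fish varied, the index thus lay below the set value. No choice of the highest was made there, so this does not describe the members, which were chosen for a high index. With edgeR 83% of genes with a simulated 2-fold difference between Coris and Labrichthys passed the threshold, and 1.81% of genes with none. The genes simulated for edgeR all had the same spread among fish, set above the common value fitted here. The 83% thus does not describe the members, whose spreads differ.

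The genes named are the 12 of highest index, the member with the highest mean r in each group of 3 or more, the member with the largest difference past the threshold in each comparison, the 3 genes on each side of the threshold and the 2 most similar profiles for the first 3 members. Members of the groups and pairs, members that follow a transcript closely and Ldim_g12444 and Ldim_g19649 were named after their values were seen. Labels number the fish within species. Of 73 pairs of fish from different species with the same number, the deviations of members had a median r of -0.01 (range -0.23 to 0.24) and 6 were over 0.1. For the 666 other pairs the median r was 0.00. Whether fish with the same number shared a day or batch was not tested. No 2 libraries of a species were identical. Alternatives were other normalizations, DESeq2 1.42.0, other filters, pseudocounts and species sets, a block on the fish number, all 46 libraries and each library left out. Leaving out Coris batuensis 10 from the correlations and fits was added after seeing the data.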

Additional observations from a re-analysis of the deposited data

Results flagged for a closer look

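Of 80 sets of fish (16 named members in 5 species), 14 had a highest fish that stood apart from the next by Dixon's criterion, and chance flags about 1 in 20 groups in general. The number is not read against that rate, because the members were chosen for their spread in these same values. Each value below is the CPM of that fish. Hemigymnus melapterus 6 was at 975 for Ldim_g16931, and Halichoeres melanurus 1 was at 89.0 for the same gene on only 3 counts. For Ldim_g5172 it was Hemigymnus melapterus 2 at 6686. Ldim_g18283 had such a fish in 3 species, Hemigymnus melapterus 9 at 1425, Coris batuensis 3 at 723 and Labrichthys unilineatus 6 at 221 on 7 counts. Ldim_g5812 had Halichoeres melanurus 1 at 1157 and Thalassoma lunare 10 at 74.3 on 3 counts. Thalassoma lunare 3 was at 400.0 for Ldim_g22112 on 15 counts, and Halichoeres melanurus 4 at 2858 for Ldim_g19873. For Ldim_g7292 it was Coris batuensis 9 at 4100 and Labrichthys unilineatus 2 at 15547, on 119 and 621 counts. Halichoeres melanurus 1 was at 1602 for Ldim_g14152, and Coris batuensis 10 at 4890 for Ldim_g510.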

How the results depend on the processing

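Which genes were chosen depended on the settings. Of the 60 members, 31 were chosen with all 46 libraries, 26 with a minimum total count of 300, 23 with one of 1000, 39 by the mean over species, 36 by the variance of log2(CPM + 10), and 38, 32 and 33 without Hemigymnus, Coris and Labrichthys, while TMM-scaled totals gave 56 and leaving out single libraries 47 to 58. With all 46 libraries 306 member pairs reached an r of 0.5 (17.3%, below the 22.9% of other pairs) and 31 members joined groups, so that the higher share of member pairs was not seen there; the cause was not tested. Pairs numbered 59 without Thalassoma and 31 without Coris batuensis 10, and grouped members 7 without that fish. Asking for an absolute log2 difference of 1 left 23 members for Halichoeres and Thalassoma, beside 218 of all genes. For Hemigymnus and Thalassoma it left 27 members, beside 279 of all genes. Of all genes it left 251 for Halichoeres and Hemigymnus and 233 for Coris and Labrichthys, where the members left are not given here. With no filter, 16145 genes were tested and 1498, 1369, 1825 and 1746 passed. For reads listed, reads not aligned and reads outside genes, 2, 8 and 6 members passed with all 46 libraries and 1, 1 and 1 with no filter. How many of all genes passed for these measures with no filter is not given here. The 1, 1 and 1 are therefore not read as a property of the members. With the fish number as a replicate block, 39, 32, 46 and 42 members passed in the 4 comparisons and 0 for each library measure, and no named call was lost. The share of all genes that passed with the block is not given here, so these numbers are not read as a property of the members either. Of 134 alternatives for the main results 114 stayed within 1.5 times, and none of the 28 for the named log2 differences reversed a direction or lost a call. The index carries no test, and leaving out single libraries moved it by over 1.5-fold in 18 of 688 cases, for 10 of the 16 named genes. With all 46 libraries it moved as far for 7 of 16, reaching 0.371 for Ldim_g6318 and 0.178 for Ldim_g8364. Of 28 alternatives for the named log2 differences 3 moved by over 1.5 times, all with 46 libraries (Ldim_g12379 to -3.02, Ldim_g5812 to 2.88 and Ldim_g22112 to 2.26). Depth limits the members with few counts most, since a single count is worth 30.4 CPM in the median library.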

Other observations

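Genes outside the 60 members also followed the groups. Of the 299 remaining eligible genes, 25 (8.36%) had an r of 0.5 or more with the mean of the 7 members around Ldim_g510 over the 43 fish, and 10 had one of -0.5 or less. With the mean of Ldim_g12301, Ldim_g25463 and Ldim_g4758 the numbers were 17 (5.69%) and 5, and with that of Ldim_g19873, Ldim_g7292 and Ldim_g8364 they were 4 and 0. These are values over the same libraries and depths, and no test was made of them.

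Some fish were the highest of their species for many members. Labrichthys unilineatus 10 was so for 15 members (25%, against 17.1% of the remaining eligible genes), Labrichthys unilineatus 5 for 14 (23.3% against 12.7%) and Thalassoma lunare 3 for 14 (23.3% against 14.4%). Labrichthys unilineatus 8 was the lowest of its species for 19 of the 60 members, a share above the 17.1% of the remaining genes. The members were chosen for their spread in these same values, and the part of that choice in these numbers was not tested.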
